A study of Mus musculus with 27 samples.

Results

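The core circadian clock genes measured here were Per1, Per2, Per3, Cry1, Cry2, Clock, Arntl, Npas2, Nr1d1, and Nr1d2, followed through the first days of the reprogramming of mouse fibroblasts into induced neuronal (iN) cells. They were taken by gene symbol from the table of expression, in which 10 of 54532 genes carried these names, each once. All 10 are annotated as protein coding. In GRCm38 the Per genes span chr11:69095217-69109960 (Per1, + strand), chr1:91415982-91459324 (Per2, - strand), and chr4:151003652-151044665 (Per3, - strand), and the Cry genes chr10:85131700-85185064 (Cry1, - strand) and chr2:92403646-92434043 (Cry2, - strand). The activators lie at chr5:76209868-76304792 (Clock, - strand), chr7:113207465-113314126 (Arntl, + strand), and chr1:39193731-39363236 (Npas2, + strand), and the REV-ERB genes at chr11:98767932-98775333 (Nr1d1, - strand) and chr14:18204054-18239127 (Nr1d2, - strand). The bulk RNA-seq had 27 libraries in 9 groups of 3, 1 for each of 3 genotypes (WT, Per1-/-, and Per2-/-) at each of 3 times (days 0, 2, and 4). The cells were mouse embryonic fibroblasts (MEFs) from mid-gestation embryos of undetermined sex without head and heart, several of which were pooled in a dish, and the mutant embryos carried germline alleles disrupting Per1 or Per2. Cells of all 9 groups, day 0 included, had been transduced 3 days before day 0 with lentiviruses for reprogramming factors that included Brn2 (the gene Pou3f2) and Myt1l under a doxycycline-inducible promoter, together with the transactivator M2rtTA. Day 0 cells were still in serum and without doxycycline, whereas on days 2 and 4 the cells had been in serum-free neuronal medium with doxycycline, so the reprogramming factors, the loss of serum, and time in culture cannot be told apart. The labels call all 27 libraries induced neurons, although the cultures still contained fibroblasts and macrophages. The hour of harvest was not given in the sources used here, and no synchronization of the cells is described for these libraries, so the phase of the clock cannot be told apart from day or genotype.

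The circadian clock of a mammalian cell is a feedback loop of transcription. CLOCK (or its relative NPAS2) and BMAL1, the product of Arntl, bind E-boxes as a dimer and activate the Per and Cry genes, whose proteins return to the nucleus and repress the dimer. A connected loop runs through the nuclear receptors REV-ERBα and REV-ERBβ, the products of Nr1d1 and Nr1d2, which are also E-box targets and repress Arntl, while RORα activates it, and a further set of targets carries D-boxes, bound by DBP, TEF, and HLF and opposed by NFIL3.

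The promoters of 3 members are shown here because they hold the E-box (CACGTG) or the D-box (TTATGTAA or TTATGCAA) in the 250 bases before an annotated start and belong to repressor genes that behaved differently over days. They were read from RefSeq (GRCm38.p6), 5′ to 3′ on the strand of the gene, with these motifs in capitals. The Per1 window is chr11:69098699-69098948 on the + strand and has an E-box that begins 166 bases and a D-box that begins 24 bases before the start. The Per3 window is chr4:151044666-151044915 on the - strand and has D-boxes beginning 205 and 158 bases before the start. The Cry1 window is chr10:85185055-85185304 on the - strand and has an E-box beginning 60 bases before the start.
Per1: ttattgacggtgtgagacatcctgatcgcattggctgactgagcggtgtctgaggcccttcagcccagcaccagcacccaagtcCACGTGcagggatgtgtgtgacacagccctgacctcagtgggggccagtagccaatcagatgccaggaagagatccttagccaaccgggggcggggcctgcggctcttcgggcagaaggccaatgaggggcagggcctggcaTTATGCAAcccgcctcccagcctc
Per3: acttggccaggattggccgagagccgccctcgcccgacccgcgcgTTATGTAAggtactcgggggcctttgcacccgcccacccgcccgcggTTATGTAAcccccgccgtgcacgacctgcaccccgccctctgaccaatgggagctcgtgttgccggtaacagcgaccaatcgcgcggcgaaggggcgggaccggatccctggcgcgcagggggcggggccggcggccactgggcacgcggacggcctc
Cry1: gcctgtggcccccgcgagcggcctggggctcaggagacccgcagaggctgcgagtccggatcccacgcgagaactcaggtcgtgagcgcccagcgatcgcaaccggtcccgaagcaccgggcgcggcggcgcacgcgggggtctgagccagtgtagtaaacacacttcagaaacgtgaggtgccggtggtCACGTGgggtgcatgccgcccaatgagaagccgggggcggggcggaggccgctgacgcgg
Both strands were searched. Of 32851 such windows of all genes, 6.02% held the E-box and 1.5% held a D-box of either spelling. The 9 members with a window had 13 windows together, and no window was available for Per2. Among these members, 2 held the E-box (Per1, Cry1) and 2 held a D-box (Per1, Per3), each in 1 window. A second start of Per1, at chr11:69099902-69100151, held neither. These letters are a description of the windows and not evidence of binding.

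Expression was measured as FPKM, fragments scaled by gene length and by library size, so levels can be set side by side between genes. Depth was 15815013 to 24264097 fragments per library. The members were of low to moderate abundance. Nr1d1 was represented by 235 to 764 fragments per library, Per2 by 92 to 411, and Npas2 by only 13 to 139.

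Before reprogramming, on day 0, Nr1d1 and Nr1d2 had the highest mean levels in all 3 genotypes, at 10.4 ± 2.43 and 7.89 ± 1.44 FPKM (SD, n = 3) in WT cells, and Npas2 had the lowest, at 0.261 ± 0.188 FPKM. Between them in WT cells came Per1 (5.78 ± 0.479 FPKM), Cry1 (5.0 ± 0.323 FPKM), Clock (4.98 ± 0.573 FPKM), Arntl (3.82 ± 0.788 FPKM), and Cry2 (3.47 ± 0.257 FPKM), with Per3 (0.987 ± 0.134 FPKM) and Per2 (0.894 ± 0.0709 FPKM) well below. The libraries of neighbours in this order overlapped except at the steps from Per1 to Cry1, from Cry2 to Per3, and from Per2 to Npas2. By day 2 the first place had passed to Nr1d2 in all 3 genotypes, and on day 4 Nr1d2 stood at 9.68 ± 2.26 FPKM in WT cells, ahead of Cry1 at 6.44 ± 0.275 FPKM and Nr1d1 at 5.20 ± 1.01 FPKM. Npas2 remained the lowest member in every group.

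**Figure D1:**
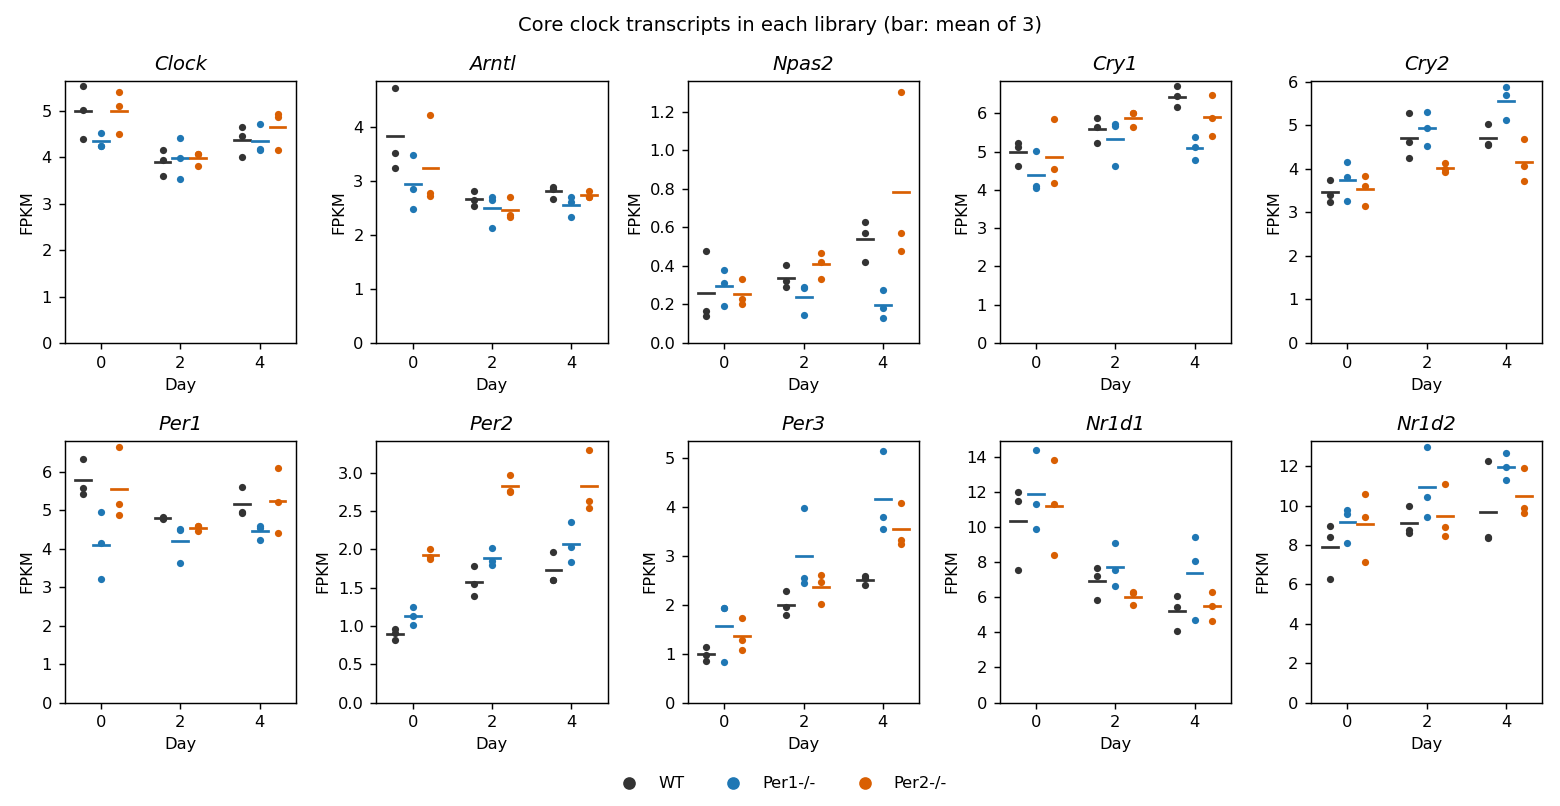
Each panel plots 1 core clock gene, with FPKM on a linear axis from 0 against day. Points are single libraries of WT (black), Per1-/- (blue), and Per2-/- (orange) cells, and bars are means of 3. Per2 and Per3 sit higher on days 2 and 4 than on day 0 in each genotype, Nr1d1 sits lower apart from overlaps in WT cells on day 2, and Per2 is highest in the libraries labelled Per2-/- on each day.

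The days were compared within each genotype with limma on log2(FPKM + 0.1), and a call required the adjusted p to be 0.05 or less together with a change of 0.58 or more in either direction. This scale understates the changes of low genes. Of the 9 members that could be tested, Per3 was called as higher in all 3 genotypes, Per2 as higher in WT and Per1-/- cells, and Nr1d1 as lower in all 3 by day 4, and the 6 others were called in no genotype. From day 0 to day 2, 2 members rose and 0 fell in WT cells, where 20.8% of the 14932 tested genes were called up and 19.7% down. In Per1-/- cells 2 rose and 1 fell (20.8% up and 18.8% down among all tested genes), and in Per2-/- cells 1 rose and 1 fell (18.7% up and 16.8% down). From day 0 to day 4, 2 rose and 1 fell in WT cells (22.9% up and 20.9% down), 2 and 1 in Per1-/- cells (22.6% and 20.4%), and 1 and 1 in Per2-/- cells (21.6% and 18.8%). These shares of 9 genes are near those of all tested genes. Libraries of a later day often did not overlap day 0. In WT cells 4869 of the 14932 tested genes lay wholly above day 0 on day 2 and 5167 wholly below. On day 4 these were 4945 and 5297. In the mutants 4396 to 4627 lay above and 4641 to 4898 below. Members without overlap on days 2 and 4 numbered 6 and 6 of 9 in WT, 4 and 5 in Per1-/-, and 7 and 3 in Per2-/- cells. The members' median log2 fold change from day 0 to day 4 was 0.29 in WT, 0.21 in Per1-/-, and 0.22 in Per2-/- cells, against -0.02, -0.00088, and 0.0045 over all tested genes.

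Without the fold threshold, 6 members passed an adjusted p of 0.05 in WT cells on day 2 and 6 on day 4, where 60.2% and 63.6% of all tested genes passed. The numbers were 5 and 4 in Per1-/- cells (60.1% and 62.7%) and 5 and 4 in Per2-/- cells (55.6% and 60.4%). From day 2 to day 4, 0 of 9 members were called in any genotype, where 3.21% of tested genes were called in WT, 2.44% in Per1-/-, and 4.06% in Per2-/- cells. At an unadjusted p under 0.05 that step had 0 members in WT, 0 in Per1-/-, and 2 in Per2-/- cells. Of all tested genes, 2977, 2983, and 3380 reached that p in the same order. Limma with voom weights also called 0 members.

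Per3, a PERIOD repressor that is dispensable for the core loop, had the largest change of the tested members from day 0 to day 4 in each genotype. In WT cells its 3 libraries had 0.859, 1.13, and 0.975 FPKM on day 0, 1.79, 1.95, and 2.28 FPKM on day 2, and 2.40, 2.59, and 2.55 FPKM on day 4. The 3 days did not overlap. In Per1-/- cells the values were 1.94, 0.837, and 1.92 FPKM, then 3.97, 2.45, and 2.55 FPKM, then 5.14, 3.56, and 3.79 FPKM. Replicate 2 was the lowest Per1-/- library on each day, and day 0 lay below both later days. Libraries labelled Per2-/- had 1.28, 1.07, and 1.73 FPKM on day 0, 2.61, 2.46, and 2.01 FPKM on day 2, and 3.32, 3.25, and 4.08 FPKM on day 4, again without overlap between days. The log2 fold change from day 0 to day 2 was 0.95 ± 0.25 (SE; adjusted p = 0.00217) in WT, 0.94 ± 0.25 (adjusted p = 0.00244) in Per1-/-, and 0.77 ± 0.25 (adjusted p = 0.0113) in Per2-/- cells. By day 4 it had reached 1.27 ± 0.25 (adjusted p = 0.000135), 1.42 ± 0.25 (adjusted p = 3.98e-05), and 1.34 ± 0.25 (adjusted p = 8.46e-05), or 2.41-fold, 2.68-fold, and 2.53-fold. The day 2 calls in the mutants depended on single day 0 libraries. Without replicate 2 of day 0, the rise to day 2 was 0.57 (adjusted p = 0.0263) in Per1-/- cells, under the fold threshold, and 0.62 (adjusted p = 0.0601) in Per2-/- cells. The Per1-/- day 2 call was also lost in a fit to only the groups compared (adjusted p = 0.0726).

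Per2, a PERIOD repressor required for sustained rhythms, was also higher on later days. WT libraries had 0.906, 0.957, and 0.817 FPKM on day 0, 1.55, 1.78, and 1.39 FPKM on day 2, and 1.60, 1.97, and 1.61 FPKM on day 4. Per1-/- libraries had 1.13, 1.02, and 1.25 FPKM, then 2.02, 1.85, and 1.79 FPKM, then 2.37, 1.83, and 2.03 FPKM. Libraries labelled Per2-/- had 1.87, 2.00, and 1.90 FPKM, then 2.77, 2.97, and 2.75 FPKM, then 2.64, 2.54, and 3.30 FPKM. In each genotype all libraries of days 2 and 4 lay above those of day 0, and days 2 and 4 overlapped. On day 2 the log2 fold change was 0.75 ± 0.13 (adjusted p = 3.73e-05) in WT and 0.69 ± 0.13 (adjusted p = 9.17e-05) in Per1-/- cells, and on day 4 it was 0.87 ± 0.13 (adjusted p = 5.13e-06) and 0.82 ± 0.13 (adjusted p = 1.23e-05). In libraries labelled Per2-/- it was 0.53 ± 0.13 (adjusted p = 0.0013) on day 2 and 0.52 ± 0.13 (adjusted p = 0.00141) on day 4, past the p threshold and under the fold threshold. Without Per2-/- day 4 replicate 2 the day 4 value was 0.59 (adjusted p = 0.00152), which passed both. With a pseudocount of 1, the changes in WT and Per1-/- cells were 0.44 to 0.53 and no longer reached the fold threshold.

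Per1, a PERIOD repressor that is also induced by many acute stimuli, was not called over days in any genotype. WT libraries had 6.33, 5.58, and 5.44 FPKM on day 0, 4.76, 4.81, and 4.83 FPKM on day 2, and 5.62, 4.95, and 4.92 FPKM on day 4. Per1-/- libraries had 4.96, 3.23, and 4.15 FPKM, then 4.49, 4.51, and 3.62 FPKM, then 4.54, 4.59, and 4.23 FPKM. Those labelled Per2-/- had 5.15, 4.89, and 6.64 FPKM, then 4.58, 4.60, and 4.46 FPKM, then 5.23, 4.40, and 6.11 FPKM. In WT and Per2-/- cells the libraries of day 2 lay below those of day 0, and in Per1-/- cells the days overlapped.

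The cryptochromes, the partners of PER in repression, changed less. Cry2 had 3.41, 3.75, and 3.24 FPKM in WT cells on day 0, 4.61, 5.28, and 4.25 FPKM on day 2, and 4.56, 5.04, and 4.55 FPKM on day 4. The later libraries all lay above day 0. Per1-/- libraries went from 4.15, 3.25, and 3.82 FPKM to 5.31, 4.54, and 4.95 FPKM and then 5.71, 5.13, and 5.88 FPKM, also without overlap with day 0. Libraries labelled Per2-/- had 3.60, 3.16, and 3.83 FPKM, then 4.13, 3.92, and 4.01 FPKM, then 3.73, 4.68, and 4.08 FPKM, and day 4 overlapped day 0. The log2 fold changes on days 2 and 4 were 0.43 ± 0.11 (adjusted p = 0.00173) and 0.44 ± 0.11 (adjusted p = 0.00146) in WT cells and 0.39 ± 0.11 (adjusted p = 0.0036) and 0.57 ± 0.11 (adjusted p = 0.000116) in Per1-/- cells, all under the fold threshold. The last of these was 0.58 to 0.64 without Per1-/- day 0 replicate 1, day 0 replicate 3, or day 4 replicate 2, which made it a call. Cry1 ranged over all genotypes from 4.06 to 5.84 FPKM on day 0, from 4.62 to 6.02 FPKM on day 2, and from 4.79 to 6.71 FPKM on day 4. Its change passed the p threshold alone in WT cells on day 4 (0.36 ± 0.11, adjusted p = 0.00823), in Per1-/- cells on day 2 (0.28 ± 0.11, adjusted p = 0.0395), and in Per2-/- cells on day 2 (0.29 ± 0.11, adjusted p = 0.0363) and day 4 (0.29 ± 0.11, adjusted p = 0.0315).

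Nr1d1, which encodes REV-ERBα, fell. On day 0 its 3 libraries had 11.5, 12, and 7.57 FPKM in WT, 9.91, 11.3, and 14.4 FPKM in Per1-/-, and 13.8, 8.40, and 11.3 FPKM in Per2-/- cells. On day 2 they had 7.21, 5.85, and 7.64 FPKM in WT, 9.07, 6.63, and 7.55 FPKM in Per1-/-, and 6.25, 6.29, and 5.54 FPKM in Per2-/- cells. On day 4 they had 5.44, 4.09, and 6.05 FPKM in WT, 9.41, 4.68, and 8.05 FPKM in Per1-/-, and 4.62, 6.32, and 5.50 FPKM in Per2-/- cells. The groups overlapped with day 0 only in WT cells on day 2, where replicate 3 of day 0 was low. Nr1d1 fell by 0.97 ± 0.24 (adjusted p = 0.00122), 0.72 ± 0.24 (adjusted p = 0.0113), and 1.00 ± 0.24 (adjusted p = 0.00105) on the log2 scale from day 0 to day 4 in WT, Per1-/-, and Per2-/- cells. To day 2 the log2 fold change was -0.56 ± 0.24 (adjusted p = 0.0463, under the fold threshold), -0.61 ± 0.24 (adjusted p = 0.032), and -0.85 ± 0.24 (adjusted p = 0.00412). In WT cells without replicate 3 of day 0 the change to day 2 was -0.77 (adjusted p = 0.0129), a call. In Per1-/- cells the calls were lost without single libraries. The day 2 call was lost without day 0 replicate 2 (-0.63), day 0 replicate 3 (-0.46), day 2 replicate 2 (-0.50), or day 2 replicate 3 (-0.59), and to day 4 it was -0.58 without day 0 replicate 3 and -0.43 without day 4 replicate 2. The day 4 call was also lost in a fit to only the groups compared (adjusted p = 0.0695).

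Nr1d2, which encodes REV-ERBβ, was not called in any genotype. Over all genotypes its libraries ranged from 6.26 to 10.6 FPKM on day 0, from 8.48 to 13.0 FPKM on day 2, and from 8.35 to 12.7 FPKM on day 4. The nearest to a call was in Per1-/- cells on day 4, with a log2 fold change of 0.39 ± 0.17 (adjusted p = 0.0527) and all 3 libraries, at 12.7, 11.3, and 12 FPKM, above the day 0 libraries at 8.08, 9.80, and 9.60 FPKM.

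Among the activators, Arntl had 3.51, 3.23, and 4.71 FPKM on day 0, 2.54, 2.64, and 2.81 FPKM on day 2, and 2.85, 2.66, and 2.89 FPKM on day 4 in WT cells. The later WT libraries all lay below day 0. Its log2 fold change in WT cells was -0.49 ± 0.16 (adjusted p = 0.0107) on day 2 and -0.42 ± 0.16 (adjusted p = 0.0249) on day 4, under the fold threshold, and the day 2 value was -0.59 (adjusted p = 0.00548), a call, without WT day 0 replicate 2. In the mutants Arntl did not pass the p threshold, with 2.48 to 3.48 FPKM in Per1-/- and 2.72 to 4.22 FPKM in Per2-/- cells on day 0. Clock had 5.02, 4.39, and 5.54 FPKM in WT cells on day 0, 3.60, 3.95, and 4.15 FPKM on day 2, and 4.45, 4.00, and 4.65 FPKM on day 4. The day 2 libraries lay below day 0 and day 4 overlapped it. The change to day 2 passed the p threshold alone in WT (-0.34 ± 0.10, adjusted p = 0.00675) and Per2-/- cells (-0.32 ± 0.10, adjusted p = 0.0115), and both turned to 0.082 and 0.0040 when the values were rescaled to a common sum.

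Npas2 was too low for the main test, which took genes averaging 0.5 FPKM or more. WT libraries had 0.165, 0.141, and 0.479 FPKM on day 0, 0.403, 0.290, and 0.322 FPKM on day 2, and 0.626, 0.572, and 0.419 FPKM on day 4. Per1-/- libraries had 0.194, 0.379, and 0.311 FPKM, then 0.143, 0.290, and 0.283 FPKM, then 0.132, 0.179, and 0.275 FPKM. Libraries labelled Per2-/- had 0.201, 0.332, and 0.230 FPKM, then 0.422, 0.332, and 0.469 FPKM, then 1.30, 0.478, and 0.569 FPKM. On day 4 all Per1-/- libraries lay below all libraries of both other genotypes. In a fit to all genes without the filter, the log2 fold change from day 0 to day 4 was 1.22 ± 0.36 (adjusted p = 0.0139) in Per2-/-, 0.93 ± 0.36 (adjusted p = 0.0627) in WT, and -0.42 ± 0.36 (adjusted p = 0.470) in Per1-/- cells, and on day 4 Per1-/- cells differed from Per2-/- cells by -1.49 ± 0.36 (adjusted p = 0.0744).

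**Figure D2:**
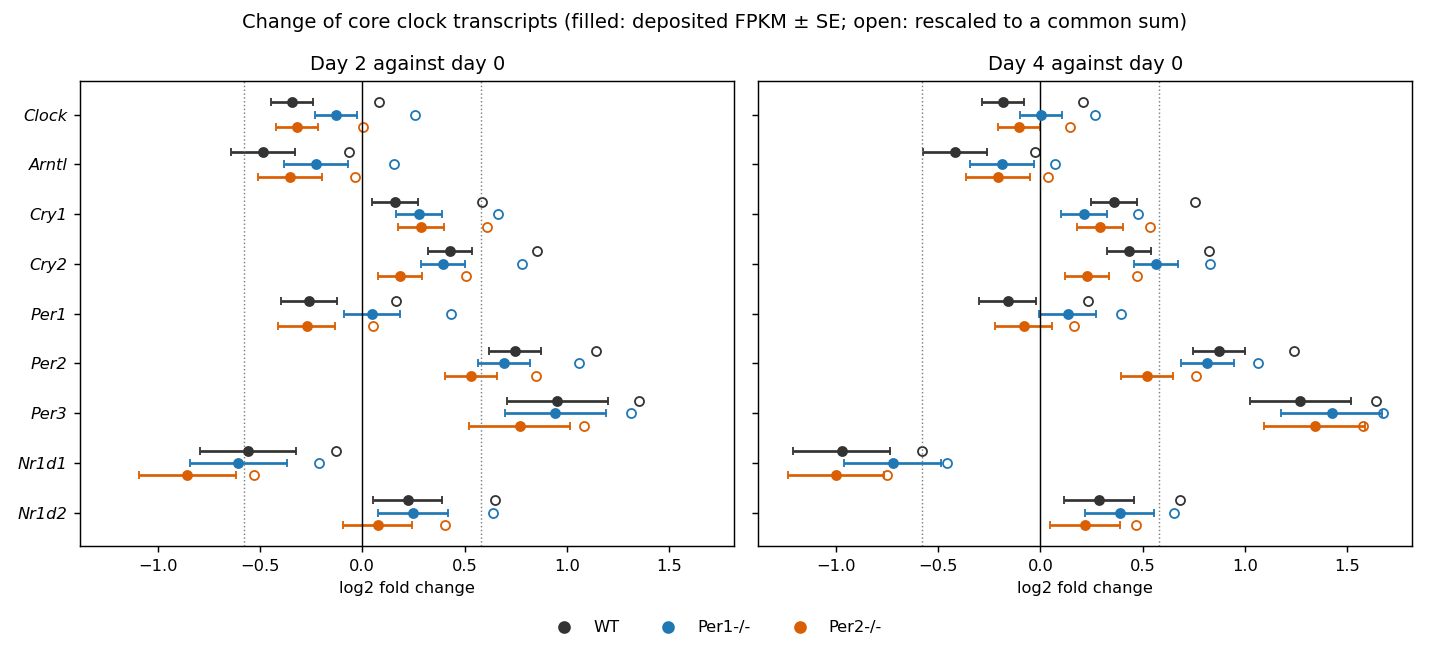
Log2 fold changes of the 9 tested core clock genes from day 0 to day 2 (left) and day 4 (right), by genotype. Filled points with bars are the deposited FPKM ± SE, open points are the same changes after rescaling each library to a common sum, and dotted lines mark 0.58 in either direction. Per2 and Per3 lie right of 0 and Nr1d1 left of 0 on both scales, while the signs for Clock, Arntl, and Per1 differ between scales in some genotypes.

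The direction of the smaller changes depended on how libraries were scaled. The deposited FPKM carry a size factor, under which the median tested gene changed by between -0.02 and 0.0045 from day 0 to days 2 and 4. Rescaled to a common sum, the scale known as TPM, the median gene shifted by 0.25 to 0.41, and 71.7% to 81.8% of called genes were higher on the later day, compared with 51.3% to 53.5% as deposited. On the TPM scale the changes of Nr1d1 were still negative, at -0.58 in WT, -0.45 in Per1-/-, and -0.75 in Per2-/- cells on day 4 (called only in Per2-/-) and at -0.13, -0.21, and -0.53 on day 2 (called in none). Nr1d2 was called as higher in all 4 comparisons of WT and Per1-/- cells on that scale, and Cry1 and Cry2 were called as higher in WT and Per1-/- cells in 7 of the 8 comparisons of days 2 and 4 with day 0. All statements of direction above are therefore relative to the median gene.

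Ratios within a library are free of this scaling. They use the same values as the calls over days, so they are not separate support. Other gene pairs were not tested for comparison. Per3 over Per1 ranged from 0.136 to 0.464 over the 9 libraries of day 0, from 0.375 to 0.884 on day 2, and from 0.426 to 1.13 on day 4. Within each genotype the later libraries all lay above day 0. The mean change over genotypes was 1.11 on the log2 scale on day 2 and 1.45 on day 4 (2.16-fold and 2.74-fold), each with an exact permutation p of 0.00025 (two-sided, 8000 arrangements of the day labels within genotypes, the smallest p possible, adjusted p = 0.000333 over 8 tests). With days exchanged only within a replicate number, the exact p was 0.00391 for each of the 6 changes of the Per and Nr1d ratios (512 arrangements, the smallest p possible). Per2 over Per1 went from 0.143 to 0.409 on day 0 to 0.288 to 0.645 on day 2 and 0.285 to 0.577 on day 4, a rise of 0.87 and 0.82 (both exact permutation p = 0.00025). Nr1d1 over Nr1d2 lay between 1.07 and 1.5 on day 0, between 0.566 and 0.822 on day 2, and between 0.414 and 0.741 on day 4, so that Nr1d1 was the higher of the 2 in all 9 libraries of day 0 and the lower in all 18 later ones. Its fall was 0.86 and 1.21 on the log2 scale (both exact permutation p = 0.00025). Cry2 over Cry1 changed by 0.10 (exact permutation p = 0.331) and 0.13 (exact permutation p = 0.243), with values by genotype on day 4 of 0.078 in WT, 0.36 in Per1-/-, and -0.060 in Per2-/- cells.

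**Figure D3:**
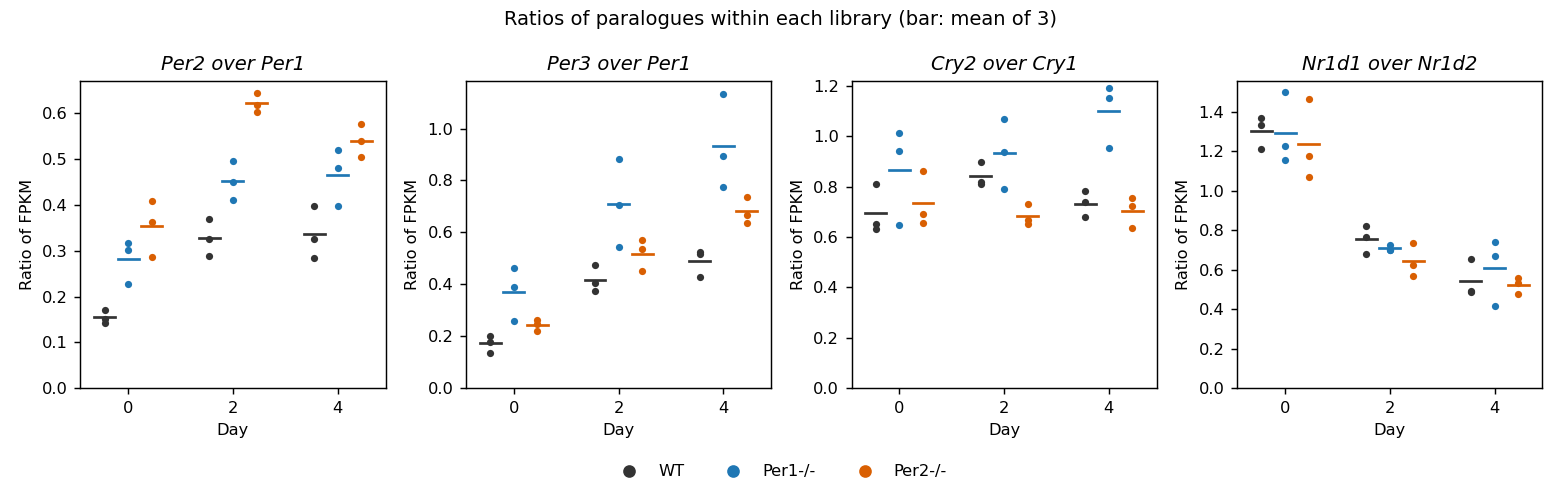
Ratios of FPKM between related clock genes within each library, on linear axes from 0, against day. Points are libraries of WT (black), Per1-/- (blue), and Per2-/- (orange) cells and bars are means of 3. Nr1d1 over Nr1d2 is above 1 in all day 0 libraries and below 1 in all later libraries, and Per2 and Per3 over Per1 are higher on days 2 and 4 than on day 0 within each genotype.

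In the bulk libraries, fewer cells of a type and less RNA per cell cannot be told apart. Between days 0 and 4 the summed level of 14 neuronal markers went from 42.6 to 70.3 FPKM to 120 to 217 FPKM, that of 8 genes of dividing cells went from 114 to 237 FPKM to 52.1 to 79.2 FPKM, that of 12 fibroblast markers went from 3846 to 5074 FPKM to 4863 to 6641 FPKM, and that of 15 macrophage markers went from 130 to 1080 FPKM to 433 to 2094 FPKM. Of the 12 fibroblast markers, 8, 7, and 7 were called as higher on day 4 in WT, Per1-/-, and Per2-/- cells. In each genotype 3 were called as lower, next to the shares of all tested genes given above. No fibroblast, macrophage, or dividing-cell marker was at 0 in a whole group, and 1 or 2 neuronal markers were at 0 in each day 0 group. The part of these shifts in the changes of the clock genes was not tested.

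The deletions were then compared with WT cells on each day. The targeted transcripts were not lost. By western blotting, the study reported that PER1 protein was lost in Per1-/- MEFs and PER2 protein in Per2-/- MEFs. Per1 had lower levels in Per1-/- than in WT cells on each day without overlap, with a log2 difference of -0.50 ± 0.14 on day 0 (unadjusted p = 0.0016, adjusted p = 0.771 by limma) and -0.30 ± 0.08 over the mean of the 3 days (adjusted p = 0.132). At the transcript level Per2 went against the label, as all 9 libraries labelled Per2-/- exceeded all WT libraries of their day. Its log2 difference from WT cells was 1.03 ± 0.13 (adjusted p = 0.00114) on day 0, 0.82 ± 0.13 (adjusted p = 0.0191) on day 2, 0.68 ± 0.13 (adjusted p = 0.223) on day 4, and 0.84 ± 0.07 (adjusted p = 1.53e-06) over the mean of the days. In a fit to only the 6 libraries compared, the adjusted p of the differences on days 0 and 2 was 0.712 and 0.423. The day 2 call was lost without any 1 of 5 of the 6 libraries (WT replicates 1 and 3 and all 3 libraries labelled Per2-/-), with differences of 0.73 to 0.83 and adjusted p of 0.0531 to 0.267. FPKM counts fragments over the whole gene, and reads from a disrupted allele were not separated here, so these levels say nothing of intact transcript or of protein. Directions drawn from these libraries below are those of the libraries labelled Per2-/-.

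Per2 was the only member called between genotypes. Against WT cells, Per1-/- cells had 0 of 9 members called on days 0, 2, and 4, where 0.0134%, 0.0067%, and 0.0268% of tested genes were called. At an unadjusted p under 0.05 limma gave 4, 1, and 3 members, next to 719, 410, and 924 of all tested genes. Voom weights called 0 members on each day. Libraries labelled Per2-/- had 1, 1, and 0 members called against WT cells on the 3 days (0.0067%, 0.0268%, and 0.0067% of tested genes). On day 4, 1 member had an unadjusted p under 0.05, next to 511 of all tested genes. Between Per1-/- and Per2-/- cells 0 were called on each day (0.0201%, 0.0737%, and 0.556% of tested genes). There 2 members had an unadjusted p under 0.05 on each day, next to 892, 1228, and 1974 of all tested genes. With voom weights 0 members were called.

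Members whose 3 libraries did not overlap between Per1-/- and WT cells numbered 2, 3, and 4 of 9 on days 0, 2, and 4, where 5.11%, 10.3%, and 14.6% of tested genes did not overlap. They were Per1 (lower) on each day, Per2 (higher) on days 0 and 2, Per3 (higher) on days 2 and 4, and Cry1 (lower) and Cry2 (higher) on day 4. For libraries labelled Per2-/- against WT the numbers were 1, 3, and 2 (7.6%, 9.98%, and 10.2%), made up of Per2 (higher) on each day, Per1 and Cry2 (both lower) on day 2, and Per3 (higher) on day 4. Between Per1-/- and Per2-/- cells they were 1, 3, and 3 (6.94%, 16.1%, and 19.2%), with Per2 lower in Per1-/- cells on each day, Cry2 higher on days 2 and 4, Nr1d1 higher on day 2, and Cry1 lower on day 4.

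Over the mean of the 3 days, 0 of 9 members were called between Per1-/- and WT cells (0.0335% of tested genes), and 7 of 9 had an unadjusted p under 0.05, compared with 9.81% of tested genes. None of these passed the adjustment over all tested genes. This fit took the libraries of different days as independent. With the replicate block in limma the adjusted p was 0.273 for Per3, 0.380 for Per1, and 0.380 for Per2. Per3 differed most, by 0.58 ± 0.14 (adjusted p = 0.101), followed by Per2 at 0.27 ± 0.07 (adjusted p = 0.143), Nr1d2 at 0.27 ± 0.10 (adjusted p = 0.331), and Cry2 at 0.13 ± 0.06 (adjusted p = 0.478) on the higher side. On the lower side were Per1 as given above, Cry1 at -0.20 ± 0.06 (adjusted p = 0.266), and Arntl at -0.20 ± 0.09 (adjusted p = 0.463). Nr1d1 (0.28 ± 0.14, adjusted p = 0.527) and Clock (-0.06 ± 0.06, adjusted p = 0.852) did not reach an unadjusted p of 0.05. Without Per1-/- day 0 replicate 2, the library with the lowest Per3 level of all, the Per3 difference was 0.71 (adjusted p = 0.00538) and was called. For libraries labelled Per2-/- against WT, 1 of 9 was called (Per2, with 0.0268% of tested genes) and 2 had an unadjusted p under 0.05 (5.69% of tested genes), the other being Per3 at 0.37 ± 0.14 (adjusted p = 0.733). Per1-/- and Per2-/- cells differed in 0 of 9 members by both thresholds (1.75% of tested genes, with 1 member called with voom weights) and in 4 at an unadjusted p under 0.05 (18.1%). Per2 was lower in Per1-/- cells by -0.57 ± 0.07 (adjusted p = 0.000418), just under the fold threshold, which it passed without any 1 of 5 libraries (-0.58 to -0.60, without Per1-/- day 0 replicate 3, Per1-/- day 2 replicate 1, Per1-/- day 4 replicate 1, or Per2-/- day 4 replicates 1 and 2 in turn). Cry2 was higher by 0.26 ± 0.06 (adjusted p = 0.0248), under the fold threshold, and did not pass the p threshold with the replicate block (adjusted p = 0.0752). WT and mutant comparisons share the WT libraries and are not independent of each other.

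**Figure D4:**
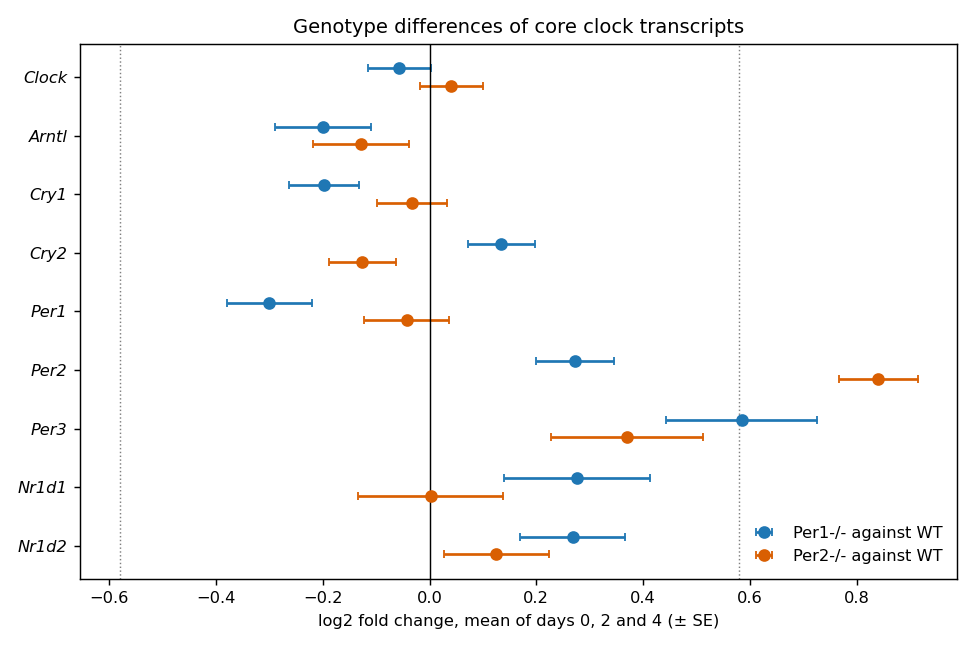
Log2 differences from WT of the 9 tested core clock genes, over the mean of days 0, 2, and 4, in Per1-/- (blue) and Per2-/- (orange) cells. Points are estimates with SE bars, and dotted lines mark 0.58 in either direction. Per2 in the libraries labelled Per2-/- lies at 0.84. Per1-/- cells lie below WT for Per1, Cry1, Arntl, and Clock and above it for Per2, Per3, Cry2, Nr1d1, and Nr1d2. None of the Per1-/- differences passed the adjusted p threshold.

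The summed level of the macrophage markers was highest in Per1-/- libraries on day 4, and the genotypes overlapped on day 0. Of the 15 markers, 0 were called between Per1-/- and WT cells on days 0, 2, and 4. Their median log2 difference on these days was 0.57, 1.07, and 1.06, higher in Per1-/- cells, so the 0 calls do not show equal levels. Against Per2-/- cells, 9 were called as higher in Per1-/- cells over the mean of days, where 1.75% of tested genes were called. Their summed level on day 4 was 2092, 1178, and 2094 FPKM in the Per1-/- libraries, 798, 563, and 1046 FPKM in WT, and 517, 433, and 772 FPKM in Per2-/-. On day 0 it was 197, 343, and 1080 FPKM in Per1-/-, 482, 220, and 212 FPKM in WT, and 542, 130, and 518 FPKM in Per2-/- cells. The part of macrophages in the genotype differences was not tested.

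The change over days was also compared between genotypes. The interaction contrasts called 0 of 9 members for Per1-/- against WT cells from day 0 to day 2 (0% of tested genes) or day 4 (0%) and for Per2-/- against WT from day 0 to day 2 (0%) or day 4 (0%). At an unadjusted p under 0.05 limma also gave 0 members in each of the 4 contrasts. Of all tested genes, 306, 500, 434, and 390 reached that p in the same order. Voom weights called 0 members. The largest of the 36 differences in size were -0.35 ± 0.18 for Per2 to day 4 in libraries labelled Per2-/- (unadjusted p = 0.064 by limma), 0.31 ± 0.20 for Per1 to day 2 in Per1-/- cells, -0.30 ± 0.33 for Nr1d1 to day 2 in Per2-/- cells, and 0.29 ± 0.20 for Per1 to day 4 in Per1-/- cells. The standard errors of 0.14 to 0.35 set the size of difference that could be seen.

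Of 28 other genes of the clock and its output, 25 were tested. From day 0 to day 2, 5 rose and 6 fell in each genotype, and from day 0 to day 4, 4 rose and 6 fell in WT, 4 rose and 7 fell in Per1-/-, and 3 rose and 6 fell in Per2-/- cells, next to the shares of all tested genes given above. Rora, which encodes a receptor that activates Arntl, rose by 1.21 to 1.51 from 0.804 to 1.62 FPKM on day 0 to 2.78 to 4.64 FPKM later. RORα acts on the same elements as REV-ERBα, whose transcript fell. Arntl itself was lower in WT cells, under the fold threshold, and did not pass the p threshold in the mutants. A link between these changes was not tested.

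The regulators of D-boxes moved in opposite directions. The activator Tef rose by 0.76 to 1.02, from 7.04 to 9.80 FPKM on day 0 to 12.9 to 19.2 FPKM later, and the repressor Nfil3 fell with log2 fold changes of -1.83 to -1.09, from 12.8 to 24.6 FPKM to 4.51 to 10.6 FPKM. Dbp was called up in 5 of 6 comparisons with log2 fold changes of 0.60 to 0.78 and had 0.50 in the other one. Its calls were the least stable, since single libraries removed each of them (Per1-/- day 0 replicate 2, for example, without which the changes were 0.27 on day 2 and 0.20 on day 4). Hlf, with a mean of 0.321 FPKM, was not tested.

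Among genes that restrain CLOCK and BMAL1, Bhlhe40 (DEC1) fell with log2 fold changes of -2.82 to -2.47, from 12 to 22.7 FPKM on day 0 to 1.65 to 3.56 FPKM later, and Cipc, which encodes a CLOCK-interacting repressor, fell with changes of -0.90 to -0.63. Arntl2, the paralogue of Arntl, had log2 fold changes of -0.96 to -0.56 and was called in 5 of 6 comparisons. The kinase subunit gene Prkaa1, whose product marks CRY1 for degradation, had changes of -0.92 to -0.67, and Nampt, a rhythmic enzyme of NAD synthesis, had -1.06 to -0.36 and was called in 4 of 6. On the TPM scale Prkaa1, Cipc, Arntl2, and Nampt kept their direction in all 24 comparisons and lost 15 of their 21 calls. Between genotypes 1 of the 25 genes was called, and only between Per1-/- and Per2-/- cells. In that comparison 1.75% of tested genes were called over the mean of the days and 0.556% on day 4. Bhlhe41 (DEC2) was higher in Per1-/- than in Per2-/- cells by 0.81 ± 0.18 (adjusted p = 0.015) over the mean of the days and by 1.40 ± 0.30 (adjusted p = 0.0324) on day 4, with 4.08, 2.79, and 4.04 FPKM against 1.29, 1.04, and 1.59 FPKM on that day. The day 4 call was lost in a fit to only the groups compared (adjusted p = 0.0622), on the TPM scale (adjusted p = 0.105), and without any 1 of 5 libraries (Per1-/- replicates 1 and 3 and the 3 labelled Per2-/-), with differences of 1.26 to 1.55 and adjusted p of 0.0823 to 0.169.

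**Figure D5:**
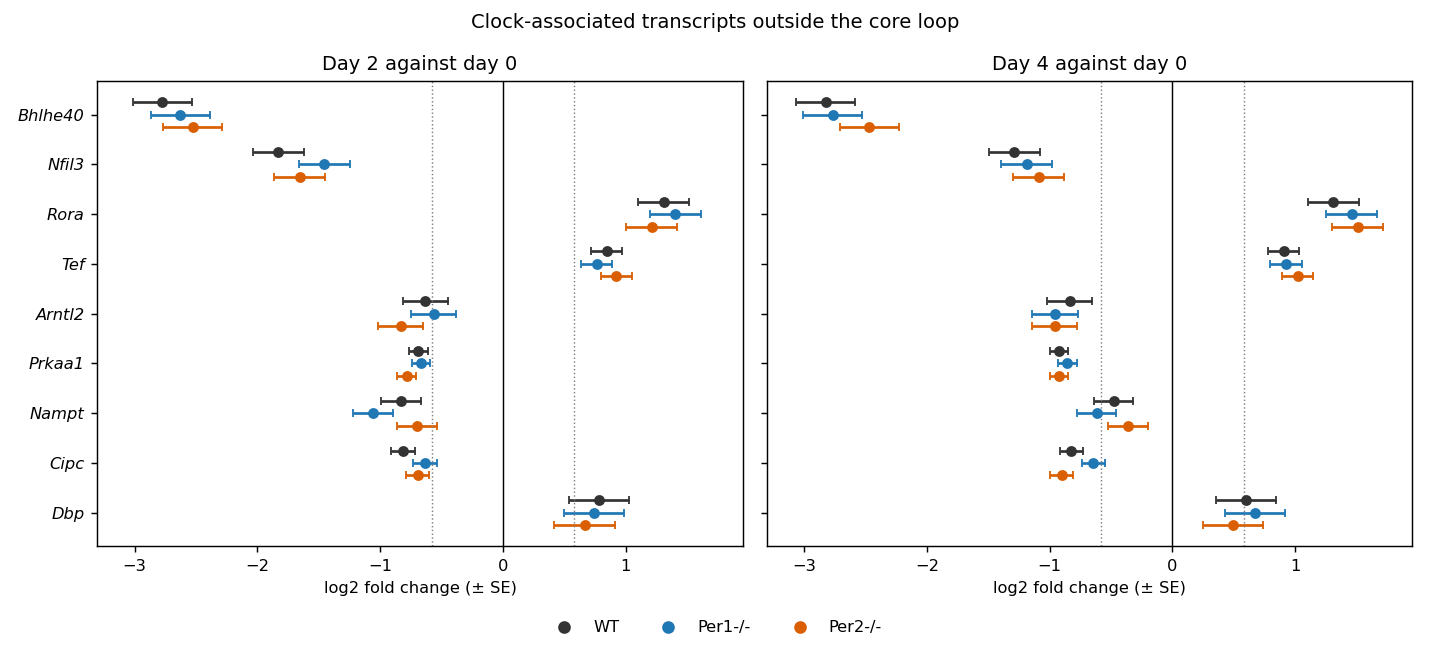
Log2 fold changes ± SE of 9 clock-associated genes outside the core list from day 0 to day 2 (left) and day 4 (right) in WT (black), Per1-/- (blue), and Per2-/- (orange) cells. Dotted lines mark 0.58 in either direction. Rora and Tef lie to the right, Bhlhe40 and Nfil3 to the left, with the 3 genotypes close to each other.

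Finally, the genes whose pattern over the 27 libraries was most like each member were listed by Pearson's r of log2 values, as a description across libraries that share day and genotype. Members correlated with each other at r between -0.73 (Cry1 and Nr1d1) and 0.78 (Per3 and Cry2). Per2 and Per3 had r = 0.70, whereas Per1 had r = -0.048 with Per2 and -0.13 with Per3. Clock and Arntl had r = 0.53, and Nr1d1 and Nr1d2 had r = 0.0030. The 3 nearest genes to Per3 were Slfn8, Abca9, and Uba7 (r = 0.92 each), those to Nr1d1 were Ch25h, Tpp1, and Hmox1 (r = 0.91, 0.90, and 0.90), and those to Cry2 were Igf1, Abca1, and Itga9 (r = 0.93, 0.89, and 0.87). Nearest to Per2 were AC154378.1, Cabyr, and Rab3gap1 (r = 0.86, 0.81, and 0.80), to Cry1 Ctdspl2, Eny2, and Zfp1 (r = 0.83 each), and to Nr1d2 Zbtb20, A730011C13Rik, and Zeb2 (r = 0.78, 0.77, and 0.77). Per1 was nearest to D5Ertd579e, Elovl7, and Cdh17 (r = 0.73, 0.72, and 0.66), Clock to Slc5a3, Numb, and Plin4 (r = 0.79, 0.76, and 0.75), and Arntl to Tbc1d15, Frmd6, and Cdyl2 (r = 0.77, 0.77, and 0.75).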

How the data were processed

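RNA was measured by poly(A)-selected, non-directional, paired-end RNA-seq in 27 libraries. Per the labels and the study's methods, the authors aligned reads to GRCm38 with HISAT2 2.0.5, counted fragments per gene with featureCounts 1.5.0-p3, and deposited FPKM per gene and library. All deposited values resolved into whole fragments within 0.01, and their denominators equalled median-of-ratios size factors. Genes overlapping on opposite strands cannot be told apart without strand. Members and gene lists were chosen with earlier results of these data known.

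Genes averaging 0.5 FPKM or more (14932 of 54532) were tested on log2(FPKM + 0.1) with limma 3.58.1 (R 4.3.3, trend) over all 9 groups, with Benjamini-Hochberg adjustment. Calls required an adjusted p of 0.05 or less together with a change of 0.58 or more in either direction. Where the labels do not show separate embryo pools, p-values measure only the spread between libraries. Ratios were tested by exact permutation. Deviations of same-numbered libraries correlated above 0.1 in every pair in 3 of 9 day comparisons within a genotype (Per1-/- day 0 with 2, and Per1-/- and WT day 2 with 4), so the numbers were taken to pair those, although the labels do not say so. The replicate block changed no member's call there. On simulated data for Per1-/- against WT on day 2 (14932 genes), 134 of 200 changes of log2 1 were recovered, with 3 false calls. In a separate run 180 of 200 changes of log2 2 were recovered, with 8 false calls. All members were named, and other clock genes were named where called in the same direction in at least 2 of the 3 genotypes on day 2 or day 4 against day 0, up to 10 by mean size of change. 1 of these 10 is not reported here. The 3 genes nearest each member by Pearson's r were also named. Alternatives were other pseudocounts, filters, scalings, voom weights, a replicate block, and leaving out each library.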

Additional observations from a re-analysis of the deposited data

Results flagged for a closer look

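Libraries of different genotypes moved in opposite directions from the day 0 mean for 2 genes. For Per1 from day 0 to day 4, the Per1-/- libraries changed by 0.429, 0.480, and 0.123 FPKM and the WT libraries by -0.163, -0.833, and -0.858 FPKM, a difference of 0.962 FPKM between the means. The limma interaction for it was 0.29 ± 0.20 on the log2 scale (unadjusted p = 0.15).

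Against the day 0 mean of its genotype, Npas2 was higher in every WT and Per2-/- library and lower in every Per1-/- library on both later days. The libraries overlapped those of day 0 in WT and Per1-/- cells on both days and in Per2-/- cells on day 2. The Per1-/- changes to day 2 were only -0.152, -0.00517, and -0.0114 FPKM. The mean change to day 2 was higher in WT than in Per1-/- cells by 0.133 FPKM and in Per2-/- than in Per1-/- cells by 0.209 FPKM. To day 4 these differences were 0.377 and 0.628 FPKM. The interaction between Per1-/- and WT cells to day 4, in the limma fit without a filter, was -1.34 ± 0.51 (adjusted p = 1.0) and that to day 2 was -0.61 ± 0.51 (adjusted p = 1.0). The differences between Per2-/- and Per1-/- cells were not tested. Npas2 rested on 13 to 139 fragments per library.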

How the results depend on the processing

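With 3 libraries a group at this depth, 67% of 200 simulated log2 changes of 1 were recovered for Per1-/- against WT cells on day 2 over 14932 genes. Differences of this size or smaller between genotypes could therefore be missed. With another test at the same thresholds, the study reported many genes as higher in Per1-/- cells than in both other genotypes, macrophage genes among them. Far fewer were called here between Per1-/- and WT cells. The reason for this gap was not tested. The adjustment is stricter where fewer genes change, and only 1 gene was called in the real comparison, so the share recovered for a single gene was not measured. Without the minimum fold change, 6 of 9 members were called in WT cells on days 2 and 4, 5 on day 2 in Per1-/- and in Per2-/- cells, 4 on day 4 in Per2-/- cells, and 2 between Per1-/- and Per2-/- cells over the mean of days. A pseudocount of 1 left 1 call on day 2 in each genotype and 0 for Per2-/- against WT on day 2 and over the mean. TPM gave 5 calls on days 2 and 4 in WT cells, 5 on day 2 in Per1-/- cells, and 1 between the mutants over the mean. Of the 14932 tested genes, TPM called 5564 up and 1253 down in WT cells on day 2 and 5485 and 1511 on day 4. It called 5317 and 1182 on day 2 in Per1-/- cells, and 106 and 137 between the mutants over the mean. There Clock turned to 0.082 in WT and 0.0040 in Per2-/- cells on day 2, by the scale itself. Scaling by fragments on genes, chosen after seeing the data, gave 5 calls in WT cells on day 4 and 1 between the mutants on day 0 and over the mean. Of all tested genes, it called 4846 up and 1845 down in WT cells on day 4. Between the mutants it called 1 up and 2 down on day 0, and 140 and 110 over the mean. A fit to only the groups compared gave 0 calls for Per2-/- against WT on days 0 and 2. Without the filter there was 1 call for Per2-/- against WT on day 4 and 1 between the mutants on day 0. A pseudocount of 0.01 gave 1 between the mutants on day 0 and over the mean, and voom weights 1 over the mean. Apart from Clock under TPM the cause was not tested.

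Leaving out 1 library gave 1 to 3 calls in Per1-/- and 1 to 2 in Per2-/- cells on day 2, 0 to 1 for Per2-/- against WT on day 2, and 0 to 1 for Per1-/- against WT and against Per2-/- over the mean. Deviations of same-numbered libraries correlated at -0.256 to 0.192 between genotypes on the same day and at -0.0172 to 0.294 between days of a genotype (median 0.127, 14 of 27 above 0.1). With the replicate block, Per2-/- against WT on day 2 had 0 calls (Per2 adjusted p = 0.055), and the other 24 counts stayed within 1.5 times. Day ratios were the same by construction (Per3 over Per1, 1.11 and 1.45).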
